A study of Ovis aries with 18 samples.

Results

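The baseline of sheep whole blood was read from the 6 arrays of blood mixed with phosphate-buffered saline (PBS) alone. They were taken by their titles from the 18 arrays of a study in which blood of the same 6 healthy adult female sheep was also incubated with lipopolysaccharide or monophosphoryl lipid A, agonists of the receptor TLR4. RNA of heparinised venous blood, kept with PBS for 90 minutes, was hybridised to a 1-colour Agilent sheep array, 1 array for each animal (71Y, 51Y, 20, 170, 80 and 65Y). No agonist array enters any value given here, and blood fresh from the vein was not analysed here, so the baseline is that of heparinised blood after 90 minutes outside the animal.

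Whole blood carries RNA of red cell precursors and reticulocytes, granulocytes, monocytes, lymphocytes and platelets together. Globin and ribosomal protein messages are known to be abundant in it, lymphocytes supply the CD3 chains, monocytes supply CD14 and lysozyme, and neutrophils of ruminants store antimicrobial cathelicidins whose genes are read mainly while the cells mature in the marrow. Chemokine and cytokine messages such as CXCL8 are made by leukocytes on activation. In a mixture of this kind, fewer cells of a type and less RNA per cell cannot be told apart.

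Of 15008 non-control probes, 1272 carried a gene name, for 949 genes. A probe was detected on an array where the scanner software marked it as well above background. Its level was log2 of the processed signal minus log2 of the 75th percentile of that array, so that 0 is the 75th percentile and each unit is a doubling. Levels rank the signals of probes, which bind their targets unequally, and do not rank numbers of transcripts.

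The arrays differed in brightness and no spot was saturated. The 75th percentile of the processed signal was 24.8 on the array of animal 170 and 27.8 on that of 51Y, against 99.3 on that of animal 20 and 124 on that of 71Y. Probes detected made up 23.9% on the array of 170 and 45.1% on that of 20. The lowest level that the software called above background was accordingly 0.18 on the array of 170 and -2.52 on that of 20, and a dim gene could be detected on some arrays alone. The arrays lay on 3 slides with 2 of the 6 on each.

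Over the 6 animals, 324 of the 949 named genes (34.1%) were detected on 6 of 6 arrays, 250 (26.3%) on 1 to 5 and 375 (39.5%) on 0. Counted by probe, 381 of the 1272 named probes (30.0%) were detected on 6 of 6 arrays, against 22.4% of all probes on the array. A gene took the best of its probes, which raises the share of genes. The arrays that detected the genes of 1 to 5 arrays were unevenly spread. Of the 38 genes detected on 5 arrays, 31 were missed on the array of animal 170. Of the 121 genes detected on a single array, 81 were detected on that of animal 20 and 33 on that of 71Y. The 8 genes of 5 arrays with the highest median included MX2, an interferon-induced GTPase, BAC5, a cathelicidin, ALDH1A1, an aldehyde dehydrogenase, and CDCA7, a gene of dividing cells. MX2 was the one missed on the array of animal 20, and the other 7 were missed on that of 170.

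A count of 0 arrays describes a probe. ACTB, the beta-actin gene used by every nucleated cell, had no detected probe on any array, and ACTG1, its close relative, was detected on the array of 71Y alone, at 1.31. PTGS2 and ZFP36 each had a probe detected on 6 of 6 arrays and another detected on 0. Of the 301 genes with more than 1 probe, 73 had probes that fell into different classes. Where 2 or more probes of a gene were detected on all 6 arrays (55 genes), their mean levels lay a median of 0.67 apart, and the gap reached 5.99 in RAD21, a cohesin subunit. The gap between such probes varied over the arrays with a median SD of 0.20 and a highest of 1.11.

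**Figure D1:**
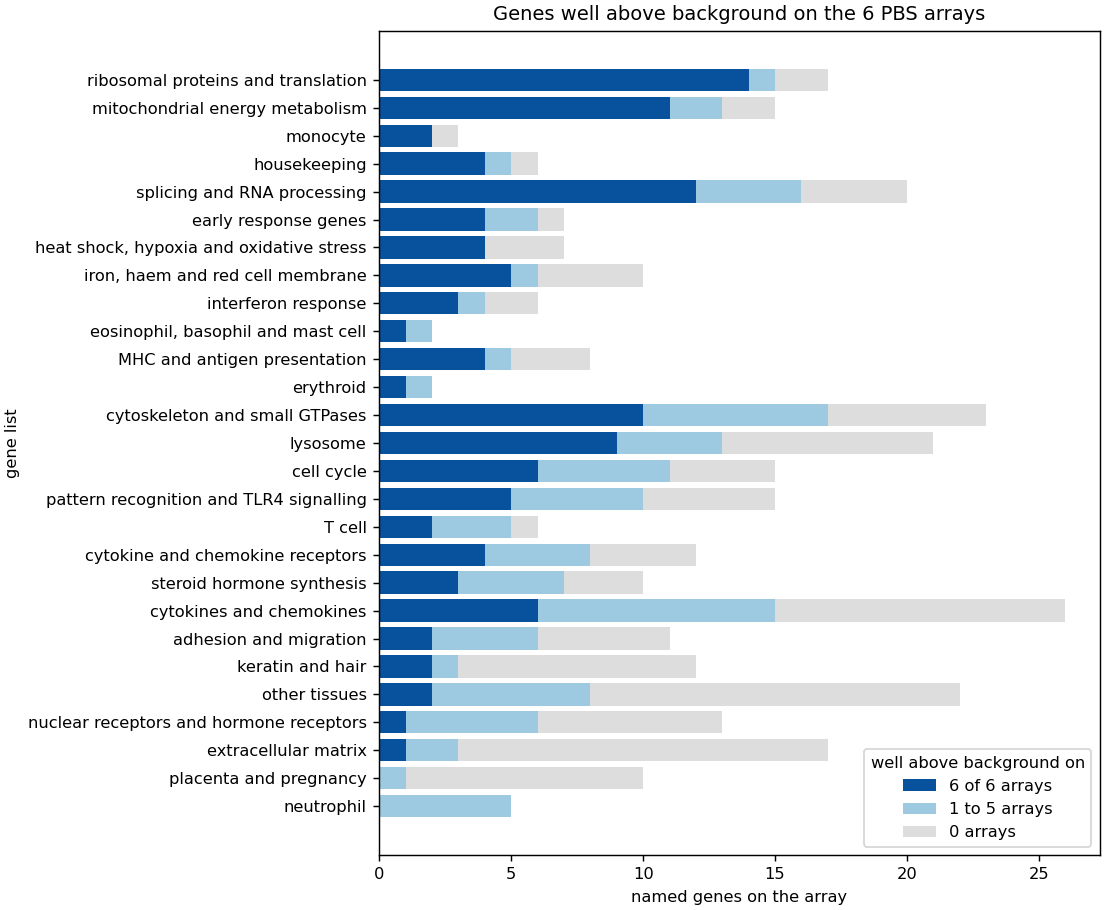
Named genes of each list with 2 or more genes on the array, as the number detected (well above background) on 6 of 6 PBS arrays, on 1 to 5 arrays and on 0 arrays. Ribosomal and mitochondrial genes are mostly dark, at 14 of 17 and 11 of 15, while genes of extracellular matrix and placenta are mostly grey, at 14 of 17 and 9 of 10 on 0 arrays. Of all named genes, 34.1% were detected on 6 of 6 arrays and 39.5% on 0.

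Markers of the cells of blood were detected unevenly, and few of them are named on the array. Beta-globin (HBB) had levels of 10.23 at the lowest, 10.40 at the median and 12.51 at the highest, and its probe ranked 13 among all probes detected on 6 arrays. Animals 51Y and 80 had the highest HBB signal, at 12.51 and 11.52, and the other 4 lay between 10.23 and 10.43. CA1, the carbonic anhydrase of red cells, was detected in the same animals 51Y and 80 alone, at 0.70 and 0.04. Among other genes of iron and haem, FTH1 (ferritin heavy chain) had a mean level of 9.08 ± 0.50 (SD, n = 6), UROD, an enzyme of haem synthesis, 4.41 ± 0.55, and GYPC, a glycophorin of the red cell membrane, 4.04 ± 0.39. All 3 were highest in 51Y and lowest in 20, and no cell count was used here. The dimmest of the 3 FTH1 probes, all detected on 6 arrays, had a mean of 5.16.

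By the brightest probe of each gene, some lymphocyte genes were among the brightest of the named genes. The T cell receptor chains CD3E and CD3D lay at 6.87 to 8.32, with a median of 8.03, and at 6.68 to 7.52, with a median of 7.33. For both genes the array of animal 20 was the lowest, and for CD3E the other 5 lay between 7.91 and 8.32. The other probe of CD3E, also detected on 6 of 6 arrays, had a mean of 4.89 against 7.89 for the probe used. For CD3D the means were 6.99 and 7.21. GNLY, the cytotoxic granule protein granulysin, ranged from 6.17 in 65Y to 7.60 in 51Y with a median of 7.47. Other T cell markers were dim, since CD247, CD28 and LCK were each detected on 1 array and the 2 probes of CD4 on 0. CR2, the complement receptor of B cells, was detected on 4 arrays, from -0.99 to 1.48.

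Of the 3 monocyte markers named on the array, 2 were detected on 6 of 6 arrays. Lysozyme (LYZ) had levels from 4.53 to 5.67 with a median of 5.08. CD14, the co-receptor that hands lipopolysaccharide to TLR4, was dimmer, from 1.54 to 2.58 with a median of 1.70, and was highest in 80 and 170. The Fc receptor gene FCGR1A was detected on 0 arrays. SELP, the 1 platelet marker named, was likewise detected on 0.

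The 5 neutrophil genes named on the array were all detected on some arrays and none on 6 of 6. BAC5 was detected on 5 arrays, from -0.80 in 65Y to 3.15 in 51Y. CATHL1B was detected on 4, from -0.02 in 20 to 3.53 in 51Y, and CATHL3 on 4, from -0.43 in 20 to 1.95 in 51Y. These 3 cathelicidin genes had the same animals at the top, 51Y and then 80, and none was detected in 170. The cathelicidin SC5 and lactoferrin (LTF) were detected in 51Y and 20 alone. All 5 are granule genes. Of the chains of the leukocyte integrin Mac-1, which neutrophils and monocytes both carry, ITGAM was detected on 0 arrays by either of its 2 probes, and ITGB2 on 6 of 6, at 2.27 ± 0.40.

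Genes of other tissues were mostly not detected. Of 22 such genes, 14 were detected on 0 arrays, against 39.5% of all named genes, and 6 on 1 to 5. The 14 included the genes of albumin (ALB), prolactin (PRL), growth hormone (GH), myoglobin (MB) and the lung surfactant proteins SFTPA1 and SFTPC. Collagens and other genes of extracellular matrix were mostly not detected either, with 14 of 17 on 0 arrays. The same held for the pregnancy proteins, with 9 of 10, and the keratin and hair genes, with 9 of 12. TIMP1, the metalloproteinase inhibitor that leukocytes also make, was the exception in the matrix list, from 6.58 to 7.38 with a median of 7.04. In the keratin and hair list ASIP (1.60 ± 0.65) and KRTDAP (-1.05 to 1.18) were detected on 6 of 6 arrays, and among the 22 genes of other tissues OXT and LHB were. OXT, the gene of oxytocin, was detected on 6 of 6 arrays by both of its probes, whose means were 3.69 and 3.67 and whose gap varied with an SD of 0.04. LHB, the beta chain of luteinizing hormone, had a probe at 2.80 ± 0.37 on 6 arrays and a probe detected on 0. Whether these probes bind RNA of other genes was not tested. CSN2, a casein gene, was detected on 5 arrays, from -1.19 to 0.30.

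The genes of highest signal were led by the translation machinery. RPS12, a protein of the small ribosomal subunit, had levels of 10.38, 11.28 and 12.54 (lowest, median and highest), and its mean of 11.33 ± 0.85 (SD, n = 6) was 2582 times the 75th percentile. RPS25 followed at 11.32 ± 0.75, HBB at 10.90 ± 0.92, the ubiquitin gene UBB at 10.77 ± 0.57 and RPL27A at 10.17 ± 0.61. RPS12 and RPS25 lay closer together than their SDs, as did RPS25 and HBB, and HBB and UBB, so that the order of these genes is not resolved. In all, 8 of the 20 highest genes encode ribosomal proteins, and RACK1, a scaffold on the ribosome, joins them.

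**Figure D2:**
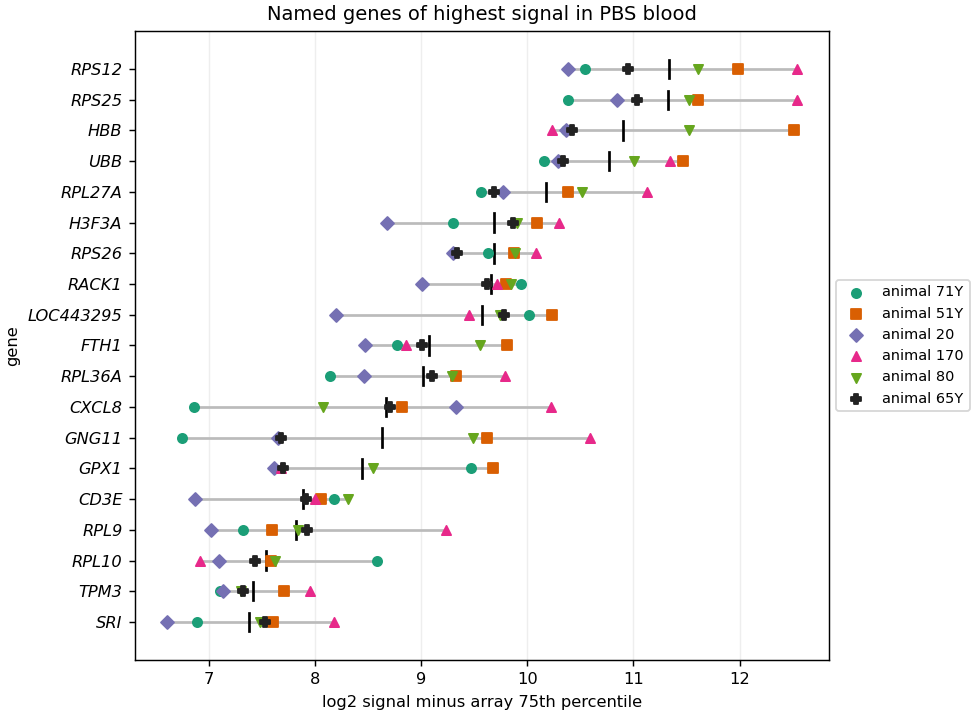
Level of 19 of the 20 named genes of highest mean signal, as log2 signal minus the 75th percentile of the array, with 1 symbol for each animal, a grey line from the lowest to the highest animal and a black bar at the mean. RPS12 spans 10.38 to 12.54 and SRI, at the bottom, has a mean of 7.38. The array of animal 170 is the highest in 11 of the 19 genes, and in 138 (42.6%) of the 324 named genes detected on 6 arrays.

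The other genes among the 20 highest were of several kinds. H3F3A (9.69 ± 0.60) encodes a replication-independent histone, FTH1 the iron store of the cell, and GPX1 (8.45 ± 0.94) a peroxidase that protects red cells. TPM3 (7.42 ± 0.34) is a tropomyosin, SRI (7.38 ± 0.56) a calcium-binding protein, and GNG11 (8.63 ± 1.48) a subunit of heterotrimeric G proteins. LOC443295 (9.57 ± 0.72) has no standard symbol. CXCL8, the neutrophil-attracting chemokine, stood thirteenth at 8.67 ± 1.14 without any agonist, and CD3E sixteenth by its brighter probe. The 2 probes of CXCL8 gave means of 8.67 and 7.69 and ranked the animals 170, 20 and 51Y at the top and 71Y at the bottom. All 20 genes stayed among the 20 highest under each of 3 other scalings.

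Genes of translation, mitochondria and splicing were detected on 6 of 6 arrays more often than the 34.1% of all named genes, a difference given as a description. Of 17 named genes of translation, 14 were detected on 6 of 6 arrays (82.4%), the exceptions being EIF3D on 1 array and EEF1D and EIF5B on 0. Of 15 genes of mitochondrial energy metabolism, 11 were detected on 6 of 6 (73.3%). SDHD, a subunit of succinate dehydrogenase, had a mean level of 6.11 ± 0.63, and NDUFA2 and NDUFA12, of complex I, 6.05 ± 0.75 and 6.03 ± 0.64. Of 20 splicing and RNA processing genes, 12 were detected on 6 of 6, led by SRSF7 at 5.07 ± 0.49 and SNRPA1 at 4.79 ± 0.27. The lysosome list, at 9 of 21 (42.9%), and the cytoskeleton list, at 10 of 23 (43.5%), lay nearer to the share of all named genes. The lysosome list held LAMP2, a membrane protein of the organelle, at 4.40 ± 0.46 and the cysteine proteases LGMN at 4.26 ± 0.64 and CTSS at 4.08 ± 0.71. The cytoskeleton list held the GTPase RAC1, which drives the actin of moving leukocytes, at 6.71 ± 0.24.

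Inflammatory genes at baseline fell into detected and undetected sets. Of 26 cytokine and chemokine genes, 6 were detected on 6 of 6 arrays (23.1%), 9 on some and 11 on 0. The shares of all named genes were 34.1%, 26.3% and 39.5%. The 6 cytokine and chemokine genes were CXCL8, TNF (4.98 ± 0.14), CXCL1 (3.09 ± 0.33), IL1B (2.71 ± 1.26), IL10 (1.42 ± 0.42) and IL18 (0.73 ± 0.77). IL1A, IL6, CSF2, IL12B and PTX3 were among the 11 detected on 0, as were IL3, IL4, IL13 and IL15. Interferon gamma (IFNG) was detected on 3 arrays, at -1.58, -0.98 and -0.77.

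TNF, IL1B and CXCL8, which activated monocytes all make, differed in their spread. The TNF values ran from 4.86 to 5.26 with a median of 4.94, and 5 of the 6 animals lay within 4.86 to 4.95. IL1B ran from 1.05 in 170 to 4.78 in 71Y with a median of 2.63, a range of 13.2-fold. CXCL8 ran the other way, from 6.86 in 71Y to 10.22 in 170, a range of 10.3-fold. PTGS2, the inducible cyclooxygenase, also ran from 1.05 in 71Y to 4.38 in 170. Animals 71Y and 170 had the brightest and the dimmest array, and the slopes of these genes on brightness are given with the fit over all probes. Of the 324 named genes detected on 6 arrays, 156 (48.1%) were lowest in 71Y and 138 (42.6%) were highest in 170.

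The receptors and signalling genes of this pathway were detected about as often as all named genes. Of 15 pattern recognition and TLR4 signalling genes, 5 were detected on 6 of 6 arrays (33.3%, against 34.1% of all named genes), 5 on some and 5 on 0. CD14 was the brightest of the 5, followed by the C-type lectin CLEC4E (1.87 ± 0.63), the NF-kappaB regulator NFKBIZ (1.40 ± 0.60), TLR6 (1.27 ± 0.58) and the kinase IRAK4 (0.13 ± 0.45). TLR4 itself was detected on the array of 71Y alone, at 0.11, and its adaptor MYD88 on 0. NFKBIA, the inhibitor of NF-kappaB, was detected on 3 arrays, from -2.31 in 20 to 3.23 in 51Y, the latter well over the lowest level detectable on any of the 6 arrays.

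Of 7 early response genes, 4 were detected on 6 of 6 arrays (57.1%, against 34.1% of all named genes). These were BTG2 (4.64 ± 0.58), ETS2 (4.37 ± 0.72), ZFP36 (3.0 ± 0.75) and PTGS2 (2.84 ± 1.17). MYC was detected on 5 arrays, EGR1 on 2 and FOS on 0. The interferon receptor chains IFNAR1 (5.95 ± 0.36) and IFNAR2 (3.78 ± 0.22) were detected throughout, and so were the antigen presentation genes TAP2 (4.83 ± 0.75) and CD86 (4.57 ± 0.35). Of 13 nuclear and hormone receptors, PPARG, a regulator of lipid metabolism and inflammation, was the 1 detected on 6 of 6 (7.69%, against the same 34.1%). Its level ran from 0.73 to 2.07 with a median of 1.25.

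Over the 324 genes, the SD between arrays had a median of 0.54, a 5th percentile of 0.24 and a 95th percentile of 1.11. All 3361 probes detected on 6 arrays gave a median of 0.53, and 7.41% of the named genes and 7.35% of those probes had an SD over 1. The spread depended little on the level, since the median SD was 0.57 in the dimmest 20% of the probes and 0.52 in the brightest 20%. With 1 array for each animal, differences between animals and between arrays cannot be told apart. Within an array, 6 probes that were printed in 5 spots each and were detected throughout gave a spot SD of 0.13 to 0.26. For 5 of these 6 genes the SD over arrays was the larger, by 4.93 times in IL1B and 16.1 times in LOC443162.

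**Figure D3:**
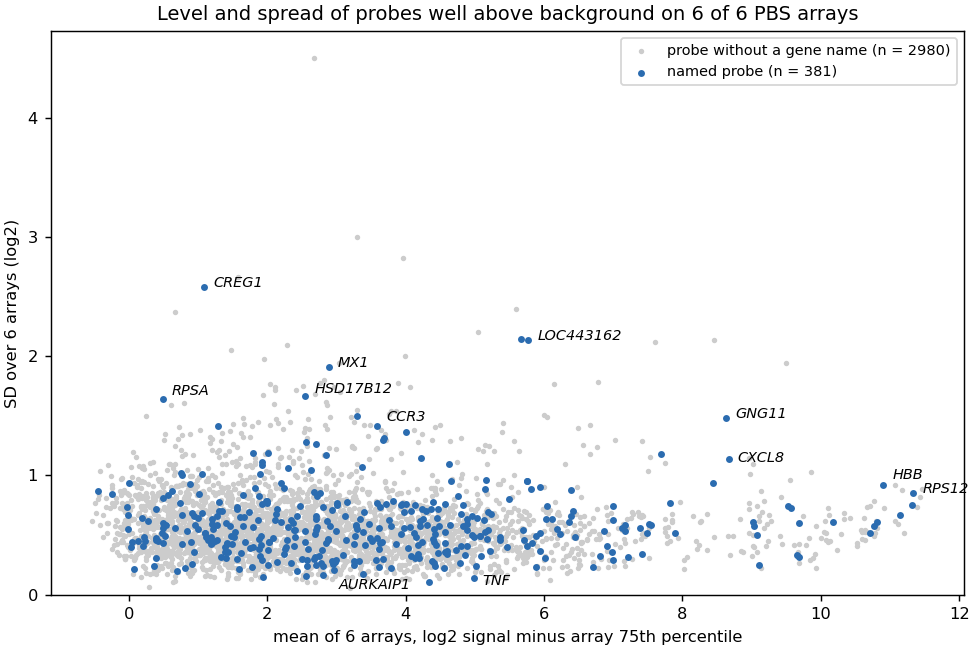
Mean level (log2 signal minus the 75th percentile of the array) against SD over the 6 PBS arrays for the 3361 probes detected on all of them, with the 381 named probes in blue. Most probes lie between SDs of 0.23 and 1.14 at every level, with CREG1, LOC443162 and MX1 far above and AURKAIP1 and TNF at the lower edge.

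The gene of largest spread was CREG1, a secreted lysosomal glycoprotein, with an SD of 2.58. It stood at 5.96 in 51Y and between -0.98 and 1.32 in the other 5 animals, and without 51Y its SD was 1.08. ATOX1, a copper chaperone, was likewise highest in 51Y, at 3.90 against 0.24 to 1.90. RPSA, a ribosomal protein also called the laminin receptor, stood at 3.61 in 71Y and between -0.82 and 0.97 in the others, and its SD fell from 1.64 to 0.67 without 71Y. For these 3 genes a single animal made most of the spread.

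A second kind of gene spread over all animals. LOC443162 ran from 3.31 in 170 to 8.36 in 51Y, a range of 33.0-fold, with a median of 5.29. Its 2 probes gave SDs of 2.14 each. CCR3, the eotaxin receptor of eosinophils, ran from 1.51 in 65Y to 5.46 in 51Y with a median of 3.66, and OXT from 2.08 in 65Y to 5.63 in 51Y with a median of 3.68. CCR3 and OXT put the 6 animals in the same order, 51Y, 71Y, 80, 20, 170 and 65Y, and LOC443162 differed from it only in the last 2. FCER1A, the high-affinity IgE receptor chain of basophils and mast cells, was detected on 5 arrays, from -1.73 in 20 to 1.19 in 170, and missed on that of 65Y. That order was noticed among the 10 genes of largest SD after their values were seen, and the relation was not tested over the 6 animals.

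MX1, an antiviral GTPase induced by interferon, was split. It stood at -0.08 in 20 and 1.06 in 71Y and between 3.73 and 4.31 in the other 4. MX2 was missed in 20 and highest in 170, at 5.95. ISG15, a ubiquitin-like protein of the same response, ran from 2.91 in 65Y to 5.57 in 170, and 71Y stood second at 5.41, so that its order was not that of MX1. The other genes of the 10 were HSD17B12 (SD 1.66), an enzyme of fatty acid elongation, GNG11 (1.48) and LXN (1.28), a carboxypeptidase inhibitor, with GNG11 and HSD17B12 highest in 170 and LXN highest in 80.

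**Figure D4:**
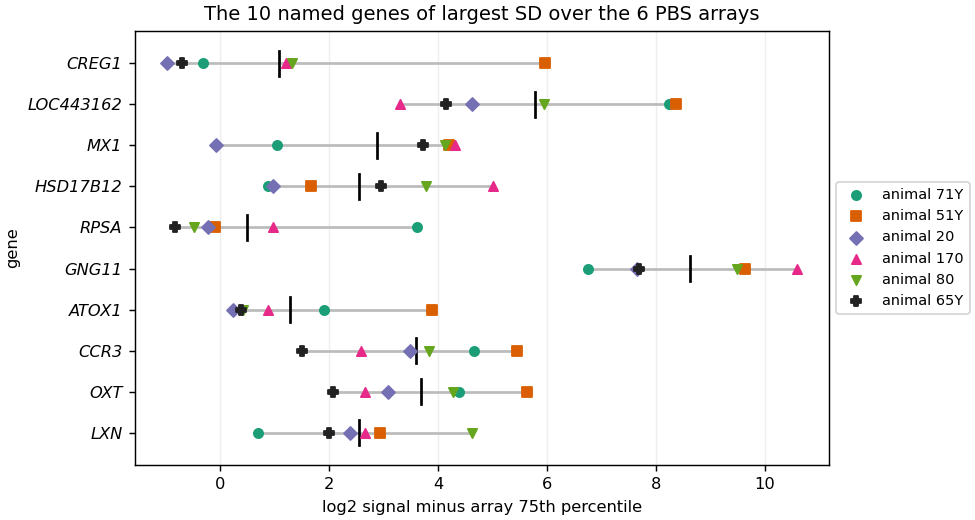
Level of the 10 named genes of largest SD, as log2 signal minus the 75th percentile of the array, with 1 symbol for each animal, a grey line from the lowest to the highest animal and a black bar at the mean. In CREG1, ATOX1 and RPSA a single animal stands apart, at 5.96, 3.90 and 3.61, while LOC443162, CCR3 and OXT spread over all 6.

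The 8 genes of smallest SD included AURKAIP1 (0.10), TNF (0.14), COPB2 (0.15), BBS4 (0.16), ATP6V1H (0.18), CLIC4 (0.20) and VPS13C (0.20). These 7 encode a regulator of Aurora kinase, a cytokine, proteins of vesicle coats, cilia and lysosomes, a chloride channel protein and a lipid transport protein. AURKAIP1 ran from 4.18 to 4.49 with a median of 4.33, a range of 1.24-fold. Their place depended on single arrays and on the scaling. With 1 animal left out, 2 (without animal 20) to 7 (without 51Y or 65Y) of the 8 stayed among the 8 steadiest. When the 75th percentile was taken over the detected probes instead, 0 of the 8 stayed among the 8 steadiest. Quantile normalization kept 1 of them, BBS4, and normexp background correction kept 0. The SD of TNF was then 0.26, 0.28 and 0.59. Of 324 genes, 0 were among the 32 steadiest under all 4 scalings, and 16 were among the 32 most variable under all 4. Those 16, counted after the values were seen, included 9 of the 10 in the plot by animal, without ATOX1, and CXCL8, IL1B, ISG15, PRPF39, FAM32A and GAPDH.

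**Figure D5:**
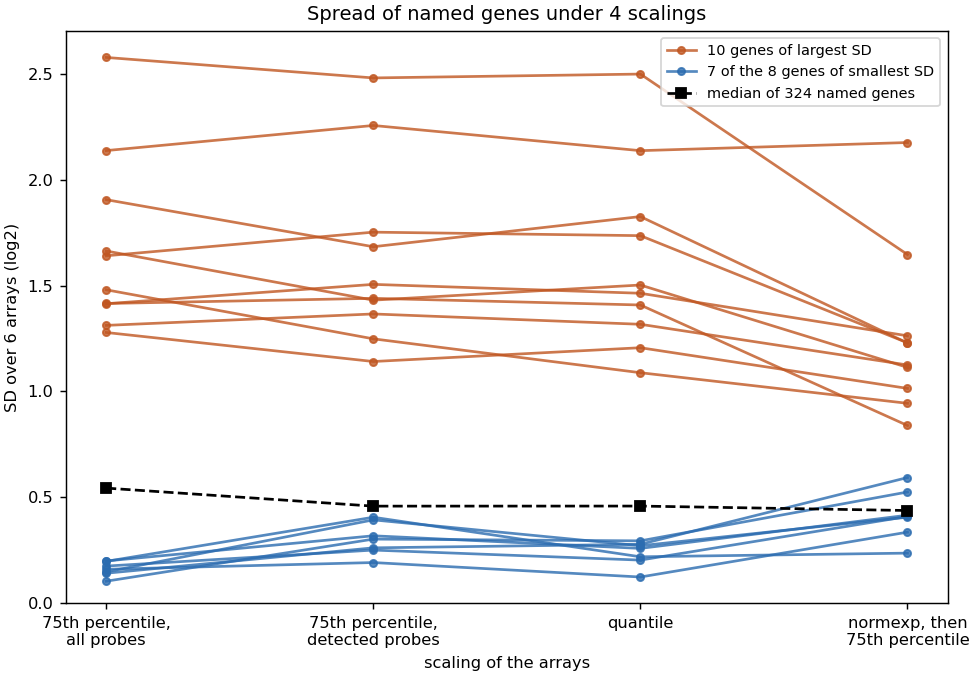
SD over the 6 PBS arrays of the 10 named genes of largest SD (orange) and 7 of the 8 of smallest SD (blue) under 4 scalings of the arrays, with the median of the 324 named genes as a dashed line. The orange genes stay above the median throughout, whereas TNF and AURKAIP1 among the blue genes pass the median of 0.44 under normexp, at 0.59 and 0.53.

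GAPDH, often used as a reference gene, was therefore among the less steady genes of this blood, from 4.60 in 170 to 6.87 in 71Y with a median of 5.70, a range of 4.80-fold. Its SD was 0.95, 1.12, 1.08 and 1.21 under the 4 scalings. Other housekeeping genes detected on 6 arrays included UBB and TUBB (4.89 ± 0.64), a tubulin. Genes of high level and smaller spread on the main scale included RPS26 (9.69 ± 0.32), RACK1 (9.65 ± 0.34), TIMP1 (7.0 ± 0.29) and RAC1.

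The levels were fitted against the brightness of the arrays, and then against the slides, with limma over the 3361 probes. For brightness, 0 probes passed a Benjamini-Hochberg adjusted p of 0.05, and 800 (23.8%) had an unadjusted p under 0.05, of which 728 were lower on brighter arrays. Among the 324 named genes 79 (24.4%) did, 73 of them lower, a share near that of all probes. With 1 animal left out, probes with an unadjusted limma p under 0.05 numbered 311 of 3821 (without 170) to 1262 of 3445 (without 51Y). The direction depended on the scaling and on the background correction. With the 75th percentile over detected probes, 308 probes with an unadjusted limma p under 0.05 were higher on brighter arrays and 199 lower, and with quantile normalization 199 were higher and 308 lower. After normexp limma called 81 probes, all higher on brighter arrays. For each doubling of brightness, the level of RPS12 had a slope of -0.87 ± 0.18 (SE, n = 6, limma adjusted p = 0.135). Slopes of GNG11, MX1 and CXCL8 were -1.46 ± 0.25, -1.68 ± 0.40 and -0.78 ± 0.34 (limma adjusted p = 0.114, 0.135 and 0.201), and IL1B had the opposite sign at 1.26 ± 0.22 (limma adjusted p = 0.114). Those of PTGS2, TNF, CCR3 and OXT were -0.63 ± 0.38, 0.00 ± 0.17, 0.01 ± 0.51 and -0.18 ± 0.48 (limma adjusted p = 0.317, 1.00, 0.995 and 0.826). For slides, limma called 0 probes, and 30 (0.893%) had an unadjusted p under 0.05. The unadjusted count was higher with 170 or 71Y left out. Those arrays share a slide, which then held 1 array, so the counts are not given. Arrays of the same slide correlated at 0.860 to 0.968 across these probes and arrays of different slides at 0.909 to 0.960, values that share their probes and are given as a description.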

How the data were processed

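Whole blood RNA of 6 sheep after 90 minutes with PBS was hybridised to a 1-colour Agilent sheep array with 15008 non-control probes. Scanner output, made with Agilent Feature Extraction 11.5.1.1, was deposited for every array, and its processed signal is an intensity after background subtraction. The deposited background flags are other values, 0 or 1 for each spot. A deposited table of ratios, each signal over a number close to the 75th percentile of its array, served as an alternative. Arrays have no read depth, and their number limits the precision. Spots of a probe were averaged (50 probes have 5 spots), and log2 of the 75th percentile of the non-control probes was subtracted from log2 of the signal. A probe was detected where more than 50% of its spots were well above background. A gene took the best class of its probes, and its level came from the probe of highest mean among those detected on 6 arrays. Genes detected on fewer arrays were given no mean or rank.

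Gene symbols were looked up by RefSeq accession in a table of genes for assembly ARS-UI_Ramb_v3.0 (1265 of 2200 probes with an accession) and from the study's table (7 probes). Other probes are not named here, and some named genes are not reported here. No probe or genome sequence was used.

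The genes named are the 20 of highest level, the 10 of largest and 8 of smallest SD, the 8 of 5 arrays with the highest median, and members of 21 lists. A further 9 lists (lysosome, iron and haem, cytoskeleton, cell cycle, splicing, extracellular matrix, keratin and hair, placenta, steroid synthesis) were drawn up from the array's gene names after the arrays were read. Members and lists were chosen with earlier results of these data known. Of 15 cell cycle genes 6 were detected on 6 arrays, of 10 steroid synthesis genes 3, of 10 iron and haem genes 5, of 11 adhesion genes 2, of 12 cytokine receptors 4, of 8 antigen presentation genes 4, of 7 stress genes 4 and of 6 interferon response genes 3. The share of all named genes was 34.1%. The B cell, platelet and NK lists had 1 gene each on the array.

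Slide and brightness were fitted by lmFit and eBayes of limma (version 3.58.1, under R 4.3.3), with two-sided p-values adjusted by Benjamini-Hochberg over 3361 probes, after a check on simulated arrays. Means and SDs were computed in Python 3.11.15. Alternatives covered the flag, spots, outlier spots, probe choice, names, scaling, normexp (offset 50, on median spot signals), the ratio table, a filter on dim probes and each animal left out. Each array is of a separate animal, so an SD holds differences between animals and between arrays together.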

Additional observations from a re-analysis of the deposited data

Results flagged for a closer look

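Among 130 genes and array measures examined, 14 (10.8%) had 1 array that stood apart from the other 5 by Dixon's criterion. Chance meets it in about 1 in 20 groups that were not selected. Some of these genes were chosen by their level or spread on the same 6 arrays, so these shares cannot be compared. The array of animal 20 was lowest for CD3E at 6.87 (others 7.91 to 8.32), RACK1 at 9.01 (9.62 to 9.94), TXN at 3.95 (5.6 to 6.56) and ZFP36 at 1.55 (3.06 to 3.66), and highest for CD1D at 1.73 (0.47 to 0.94). On the same array the median background-subtracted signal of the E1A control spots was 5.96, against -2.0 to -0.40 on the other 5, and its part in the levels of these genes was not tested. The array of 71Y was highest for the ATP synthase subunits ATP5MC1 at 5.96 (3.89 to 4.18) and ATP5MC2 at 6.39 (4.75 to 5.01), and lowest for CCNG1 at 6.11 (6.90 to 7.24) and BBS4 at 2.24 (2.59 to 2.67). CREG1 at 5.96 was highest in 51Y, TNF at 5.26 (4.86 to 4.95) and ATP6V1B2 at 2.87 (1.58 to 2.05) were highest in 80, and SF3B1 at 2.85 (2.06 to 2.35) was highest in 65Y.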

How the results depend on the processing

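The count of 324 genes detected on 6 of 6 arrays was 420 with the software's test against local background (gIsPosAndSignif), which placed 422 on some arrays and 107 on 0. Leaving out 1 animal gave 325 to 355 genes on all arrays, 168 to 248 on some (168 without animal 20) and 375 to 456 on 0. The median level of 2.99 was -1.22 with the 75th percentile over detected probes (a change of zero point common to all genes) and 1.93 with normexp, which moves genes unequally, and 2.96 to 3.17 with 1 animal left out. The median SD of 0.54 was 0.44 to 0.57 with 1 animal left out. Of the 10 genes of largest SD, 9, 9 and 6 were shared with the percentile over detected probes, quantile normalization and normexp. With 1 animal left out, 6 to 9 were shared (6 without 51Y). The 20 highest genes were all shared under each scaling and with each animal left out, except 19 without 65Y. Probes called between slides numbered 0, and 1 with all probes floored. With 1 animal left out a slide held 1 array, so slide counts are not given for those fits. Probes called with brightness numbered 0, 81 with normexp, and 0 to 1 with 1 animal left out (1 without 71Y). With all probes floored 10958 were called, because the floor itself follows brightness. No paired analysis was possible because a single treatment is described, with 1 array for each animal. With 6 arrays, brightness and animal cannot be told apart.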
